A study of Mus musculus with 12 samples.

Results

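Axon guidance ligands and receptors were followed in ribosome-bound and total RNA of the mouse spinal cord. The set held 72 protein-coding genes of the 40912 gene IDs counted, taken by symbol alone and not by level. It comprised 38 ligands (class 3 to 7 semaphorins, ephrins, Slits, netrins and netrin Gs, and the repulsive guidance molecules Rgma and Rgmb) and 34 receptors (plexins, neuropilins, Eph receptors, Robos, Unc5 receptors and Dcc). The counts of 67 members were high enough to be tested, and the other 5 (Efna4, Epha2, Ntn5, Robo3 and Sema3g) were not.

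The study compared RNA held by ribosomes of motor neurons with that of neurons in general by translating ribosome affinity purification (TRAP), in which an EGFP-tagged ribosomal protein, Rpl10a, is pulled down together with the RNA its ribosomes carry. All mice were at postnatal day 21 and carried a bacTRAP transgene, so the tag was present in inputs as well as pulldowns. The group TRAP_Chat was the pulldown from Tg(Chat-EGFP/Rpl10a)DW167Htz mice, in which sequences of Chat, the acetylcholine-synthesizing enzyme, drive the tag in cholinergic neurons. PreIP_Chat was the RNA of the same line before pulldown. TRAP_Snap25 was the pulldown from Tg(Snap25-EGFP/Rpl10a)JD362Jdd mice, in which sequences of the synaptic gene Snap25 drive the tag in neurons, and PreIP_Snap25 was the input of that line. Each group had 3 libraries. The labels do not say whether these came from separate or pooled animals, so p-values measure the spread between libraries, which may be technical.

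Guidance molecules steer growing axons and migrating cells by attraction and repulsion, and many stay in use in the mature nervous system at synapses and in myelinating cells. Slits repel axons through Robo receptors, class 3 semaphorins through neuropilins paired with plexins, and other semaphorins through plexins alone. Ephrins signal through Eph receptors on touching cells, and netrins attract through Dcc or repel through Unc5 receptors. In the spinal cord these systems are known for guiding commissural axons at the midline and motor axons into the limb.

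Total counts ran from 10149346 to 20521699 per library. Levels are given in CPM, that is, counts divided by the library size after TMM scaling. The cholinergic motor neuron list stood at 394% to 551% of the input mean in TRAP_Chat libraries and at 112% to 163% in TRAP_Snap25 libraries. All 10 of its genes passed the test as higher in TRAP_Chat than in PreIP_Chat, though the list was chosen with earlier results of these data known. The list includes Chat, whose sequences drive the tag in that line. It also includes Slc18a3, whose inputs averaged 184 ± 17.8 CPM in PreIP_Chat and 50.7 ± 24.1 CPM in PreIP_Snap25 (SD, n = 3 each). Chat itself averaged 159 ± 46.4 CPM in TRAP_Chat, 22.2 ± 7.24 CPM in PreIP_Chat, 25 ± 4.56 CPM in TRAP_Snap25 and 16.1 ± 3.06 CPM in PreIP_Snap25 (SD, n = 3 each). Snap25 averaged 15700 ± 781 CPM in TRAP_Snap25 and 9480 ± 955 CPM in PreIP_Snap25, which did not pass (adjusted p = 0.0544). The list for neurons in general stood at 137% to 150% of the input mean in TRAP_Snap25. None of its 7 genes passed as higher there (median log2 fold change 0.28), and 2 did in the Chat line. Rpl10a averaged 3.72 ± 1.56 CPM in TRAP_Chat, 8.66 ± 1.33 CPM in PreIP_Chat, 5.74 ± 1.97 CPM in TRAP_Snap25 and 6.35 ± 2.34 CPM in PreIP_Snap25. Inhibitory neuron markers were at 14.8% to 31% of the input mean in TRAP_Chat and at 105% to 142% in TRAP_Snap25. Oligodendrocyte markers remained at 10.8% to 29.5% of the input mean in TRAP_Chat, where replicate 1 was highest, and at 9.23% to 28.4% in TRAP_Snap25, where replicate 3 was highest. None of these lists held a gene that was at 0 in every pulldown.

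The repellent ligands Slit3, Sema3a and Slit2 passed as higher in TRAP_Chat than in PreIP_Chat in all 14 alternative analyses. Their promoters are printed to show how differently these genes begin. Each run holds 250 bases before to 50 bases after a RefSeq start on build GRCm38.p6, all on the plus strand, with CG dinucleotides in capitals. Sema3a lies at chr5:13396534-13396833, Slit2 at chr5:47982905-47983204 and Slit3 at chr11:35121206-35121505.
Sema3a: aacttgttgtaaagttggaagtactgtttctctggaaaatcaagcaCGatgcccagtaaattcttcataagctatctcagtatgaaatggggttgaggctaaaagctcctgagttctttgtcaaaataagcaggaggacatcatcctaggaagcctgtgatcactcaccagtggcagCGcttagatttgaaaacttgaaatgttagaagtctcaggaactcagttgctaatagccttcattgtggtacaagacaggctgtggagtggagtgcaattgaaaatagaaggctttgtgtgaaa
Slit2: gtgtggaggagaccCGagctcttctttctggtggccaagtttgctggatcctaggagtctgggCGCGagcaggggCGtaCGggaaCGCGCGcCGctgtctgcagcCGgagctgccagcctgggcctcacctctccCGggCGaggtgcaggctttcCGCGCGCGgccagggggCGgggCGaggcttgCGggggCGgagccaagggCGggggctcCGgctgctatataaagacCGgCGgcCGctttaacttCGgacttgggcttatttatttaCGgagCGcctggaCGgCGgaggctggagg
Slit3: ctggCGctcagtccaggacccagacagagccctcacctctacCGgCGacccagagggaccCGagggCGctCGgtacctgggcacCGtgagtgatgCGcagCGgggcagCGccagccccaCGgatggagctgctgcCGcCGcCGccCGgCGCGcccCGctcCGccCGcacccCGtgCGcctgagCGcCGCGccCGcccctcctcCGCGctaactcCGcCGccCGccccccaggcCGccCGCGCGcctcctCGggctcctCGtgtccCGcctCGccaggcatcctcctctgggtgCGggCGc
The Sema3a window held 2 CG dinucleotides and 41.3% G or C, whereas that of Slit2 held 30 and 68.0% and that of Slit3 held 41 and 78.3%. The median was 20 CG over 79 promoters of 61 members and 7 over all 32851 promoters of the same length in the table. The letters TATAAA, sought on both strands, stood in the Slit2 window and not in those of Sema3a and Slit3. They were found in 13.6% of all promoters and in 5.06% of the members' promoters. The letters TAATTA, which read the same on both strands, were in none of these 3 windows and in 5.29% of all promoters.

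Comparing TRAP_Chat with PreIP_Chat asks which guidance genes were more or less abundant on ribosomes of the Chat line than in the whole cord. Secreted ligands led the rises: Slit3 stood 4.52-fold, Sema3a 3.46-fold, Sema3c 3.06-fold and Slit2 2.86-fold higher in TRAP_Chat. The falls included the plexins Plxnb1 and Plxnb3, the netrin receptor Unc5b and the transmembrane ligands Sema4d and Efnb3. Of 67 members tested, 7 were higher and 17 lower (edgeR quasi-likelihood test, Benjamini-Hochberg adjusted p under 0.05 over 15905 genes). Over all genes tested, 12.6% were higher and 14.3% lower, so the share of members called higher, 10.4%, was near the background and that called lower, 25.4%, was above it. Counted in either direction, 24 members passed (35.8%, against 26.9% of all genes), and 34 had an unadjusted p under 0.05 (against 39% of all genes). All 3 pulldowns lay above all inputs for 12 members (21.8% of all genes did) and below them for 26 (26.1% of all genes did). The members' median log2 fold change was -0.36, and that of all genes was -0.06. Of the 7 that rose, 6 were ligands and 1 was a receptor. Of the 17 that fell, 8 were ligands and 9 were receptors, where 35 ligands and 32 receptors were tested.

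Slit3, a secreted repellent read by Robo receptors, was at 52.7, 126 and 92.5 CPM in TRAP_Chat and at 22, 19.9 and 18.1 CPM in PreIP_Chat. Every pulldown lay above every input, with the pulldowns themselves far apart. Its log2 fold change was 2.18 ± 0.32 (SE, adjusted p = 0.000202). Slit2, its close relative, was at 70.6, 163 and 93.3 CPM in TRAP_Chat and at 36.5, 33.8 and 44 CPM in PreIP_Chat. The groups again did not overlap, and replicate 2 was the highest pulldown for both Slits. The log2 fold change of Slit2 was 1.52 ± 0.31 (SE, adjusted p = 0.00252). The third member of the family, Slit1, gave -0.57 ± 0.38 on the log2 scale (adjusted p = 0.282) and did not pass.

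Sema3a, the secreted semaphorin that collapses growth cones through Nrp1, was at 40.6, 45.3 and 37.9 CPM in TRAP_Chat and at 9.34, 16.3 and 10.1 CPM in PreIP_Chat. These pulldowns were close together and far above the inputs, with a log2 fold change of 1.79 ± 0.28 (SE, adjusted p = 0.000326). Sema3c, another secreted ligand of neuropilin and plexin receptors, was at 17.4, 31.7 and 13.8 CPM in TRAP_Chat and at 5.56, 9.86 and 5.08 CPM in PreIP_Chat. All 3 pulldowns lay above the inputs. Its log2 fold change was 1.62 ± 0.47 (adjusted p = 0.0179). Sema3e, the class 3 member known as a ligand of Plxnd1, went the other way and fell by 1.35 on the log2 scale (adjusted p = 0.0391).

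Of the remaining ligands that rose, Efna3, a membrane-anchored ligand of EphA receptors, was at 30.8, 35.8 and 40.3 CPM in TRAP_Chat and at 22.3, 15.9 and 19.4 CPM in PreIP_Chat. Antisense gene Gm15998 covers 14.1% of its exon bases, and reads of the pair cannot be told apart because the strand setting of the counting is not given in the sources used here. Ntng1, a membrane-anchored netrin G that binds partners at synapses, was at 64.6, 68.2 and 88.3 CPM in TRAP_Chat and at 34.5, 43 and 49.6 CPM in PreIP_Chat. For both genes the groups did not overlap, and the log2 fold changes were 0.89 ± 0.29 for Efna3 and 0.80 ± 0.25 for Ntng1 (adjusted p = 0.0324 and 0.0278). The receptor that rose was Nrp2, the neuropilin preferred by Sema3c and Sema3f, at 90.2, 92.1 and 111 CPM in TRAP_Chat and 65.5, 65.9 and 43.4 CPM in PreIP_Chat. Its change was 0.74 ± 0.26 on the log2 scale (adjusted p = 0.0406).

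**Figure D1:**
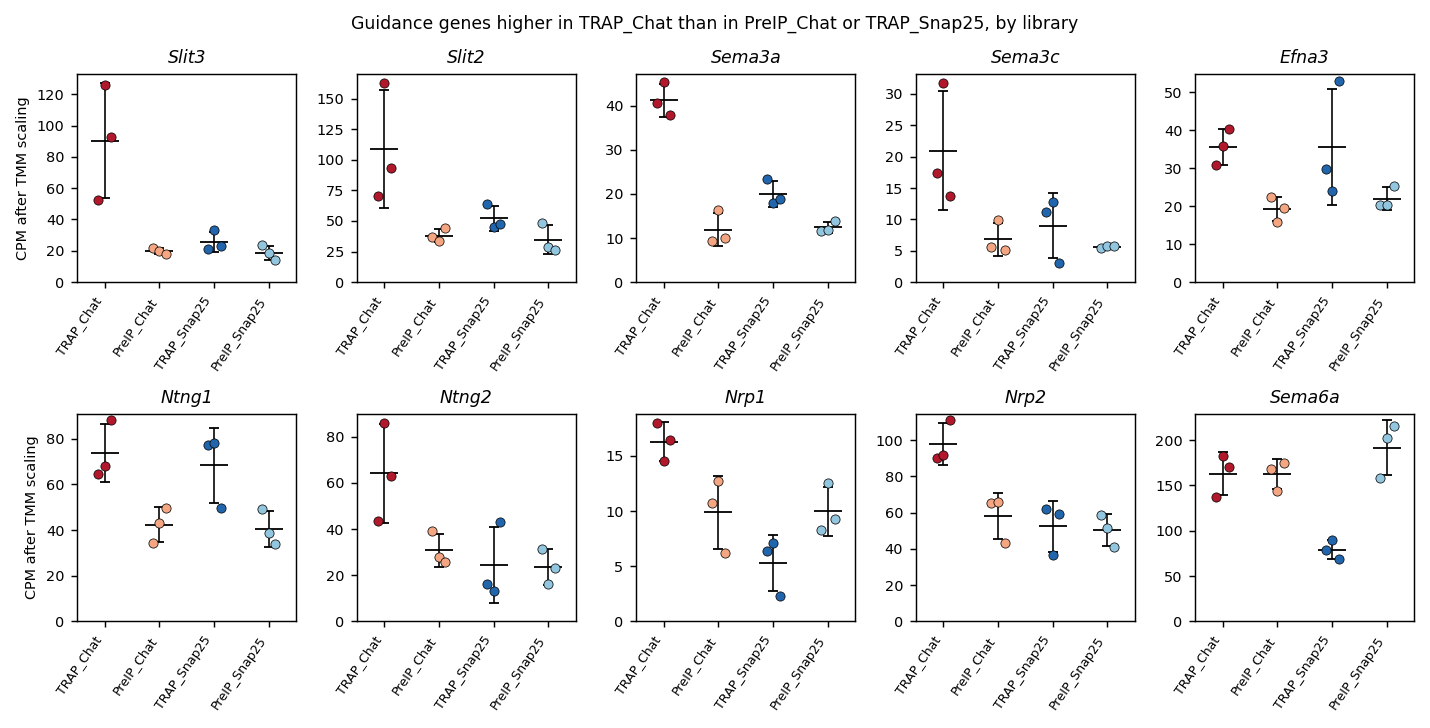
Levels in CPM after TMM scaling (vertical axes, linear) of 10 guidance genes that passed as higher in TRAP_Chat than in PreIP_Chat or TRAP_Snap25. Points are libraries, horizontal bars are group means and error bars are SD (n = 3). Slit3 reached 52.7 to 126 CPM in TRAP_Chat, above all other libraries, whereas Sema6a was at 69 to 89.3 CPM in TRAP_Snap25, below all others.

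Among the receptors that fell, Plxnb1, the plexin that binds Sema4d, was at 11.4, 3.48 and 9.01 CPM in TRAP_Chat and at 77.1, 59.2 and 82.7 CPM in PreIP_Chat. The pulldowns were all far below the inputs, a 9.13-fold difference (log2 fold change -3.19 ± 0.53, adjusted p = 0.000562). Plxnb3, a plexin that binds Sema5a, was at 26.3, 9.14 and 13.4 CPM in TRAP_Chat and at 98.3, 92.8 and 87 CPM in PreIP_Chat. Unc5b, a receptor for repulsion by netrin, was at 13.5, 12.6 and 18.2 CPM in TRAP_Chat and at 105, 83.5 and 108 CPM in PreIP_Chat. Neither gene showed overlap, and the log2 fold changes were -2.51 ± 0.45 for Plxnb3 and -2.74 ± 0.44 for Unc5b (adjusted p = 0.00101 and 0.000409). Epha8, an Eph receptor with few reads, had 6, 4 and 4 counts in TRAP_Chat and 31, 46 and 21 counts in PreIP_Chat. Its log2 fold change of -2.63 ± 0.88 (adjusted p = 0.036) rests on these small counts.

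Epha4, a receptor for both classes of ephrin that is known for guiding limb motor axons, was at 7.17, 9.22 and 13.2 CPM in TRAP_Chat and at 20.7, 25.8 and 32.5 CPM in PreIP_Chat. Robo2, a receptor for Slits, was at 18.6, 9.07 and 19.5 CPM in TRAP_Chat and at 26.6, 35.2 and 39.1 CPM in PreIP_Chat. Both were lower in every pulldown than in any input, with log2 fold changes of -1.42 ± 0.30 for Epha4 and -1.10 ± 0.35 for Robo2 (adjusted p = 0.00283 and 0.0288). Slit2 and Slit3 were higher, and the Slit receptor Robo2 lower, in the same 3 pulldowns. Robo1, which also binds Slits, overlapped its inputs there and did not pass (log2 fold change -0.19 ± 0.24, adjusted p = 0.595). Ephb1, a receptor for B ephrins, was at 32.4, 25.5 and 39.1 CPM in TRAP_Chat and at 80, 74.9 and 71.8 CPM in PreIP_Chat, a 2.33-fold difference (adjusted p = 0.00167). Epha10 and Plxna2 also fell, by 1.16 and 0.84 on the log2 scale.

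Among the ligands that fell, Efnb3, the transmembrane ephrin known as a midline barrier in the cord, was at 57.6, 28.4 and 41.8 CPM in TRAP_Chat and at 217, 168 and 186 CPM in PreIP_Chat. Sema4d, a transmembrane semaphorin known from oligodendrocytes, was at 21.4, 35.4 and 32.1 CPM in TRAP_Chat and at 156, 137 and 123 CPM in PreIP_Chat. Each was lower in all pulldowns, with log2 fold changes of -2.16 ± 0.38 for Efnb3 and -2.23 ± 0.37 for Sema4d (adjusted p = 0.000859 and 0.000511). Rgma, a membrane-anchored repellent that binds neogenin, was at 17.4, 9.75 and 13.1 CPM in TRAP_Chat and at 56.8, 52.6 and 55.4 CPM in PreIP_Chat. Ntn1, the secreted netrin that attracts commissural axons, was at 3.46, 0.378 and 2.24 CPM in TRAP_Chat and at 11.4, 9.25 and 7.46 CPM in PreIP_Chat. The drops were 2.03 ± 0.54 on the log2 scale for Rgma and 2.19 ± 0.67 for Ntn1 (adjusted p = 0.0107 and 0.0236), and replicate 2 was the lowest pulldown for both. Sema5a, a transmembrane semaphorin with thrombospondin repeats, was at 64.5, 53.3 and 59.6 CPM in TRAP_Chat and at 122, 143 and 141 CPM in PreIP_Chat (log2 fold change -1.19 ± 0.21, adjusted p = 0.000684). Sema4a and Efnb2 fell by 1.11 and 1.04 on the log2 scale.

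Markers of other cells moved with these falls. All 10 oligodendrocyte, 6 of 6 oligodendrocyte precursor, 9 of 9 astrocyte and 7 of 9 microglial markers were lower in TRAP_Chat than in PreIP_Chat. The summed oligodendrocyte level was 2179 to 5943 CPM in TRAP_Chat, highest in replicate 1, and 17340 to 22720 CPM in PreIP_Chat. As percentages of the input mean, Plxnb1 stood at 15.6, 4.77 and 12.3 in TRAP_Chat replicates 1, 2 and 3, Plxnb3 at 28.4, 9.86 and 14.5, and the oligodendrocyte sum at 29.5, 10.8 and 15.7. Sema4d, at 15.4, 25.5 and 23.1, and Epha4, at 27.2, 35 and 50.1, were instead lowest in replicate 1. Of the 17 members that fell, 7 were highest in replicate 1 and 10 were not. The share of all genes highest in that replicate was not counted. Inhibitory neuron markers fell too, 8 of 8, and glutamatergic markers, 3 of 6. The part of these cells in the members' values was not tested, and in bulk samples fewer cells of a type and less RNA per cell cannot be told apart.

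**Figure D2:**
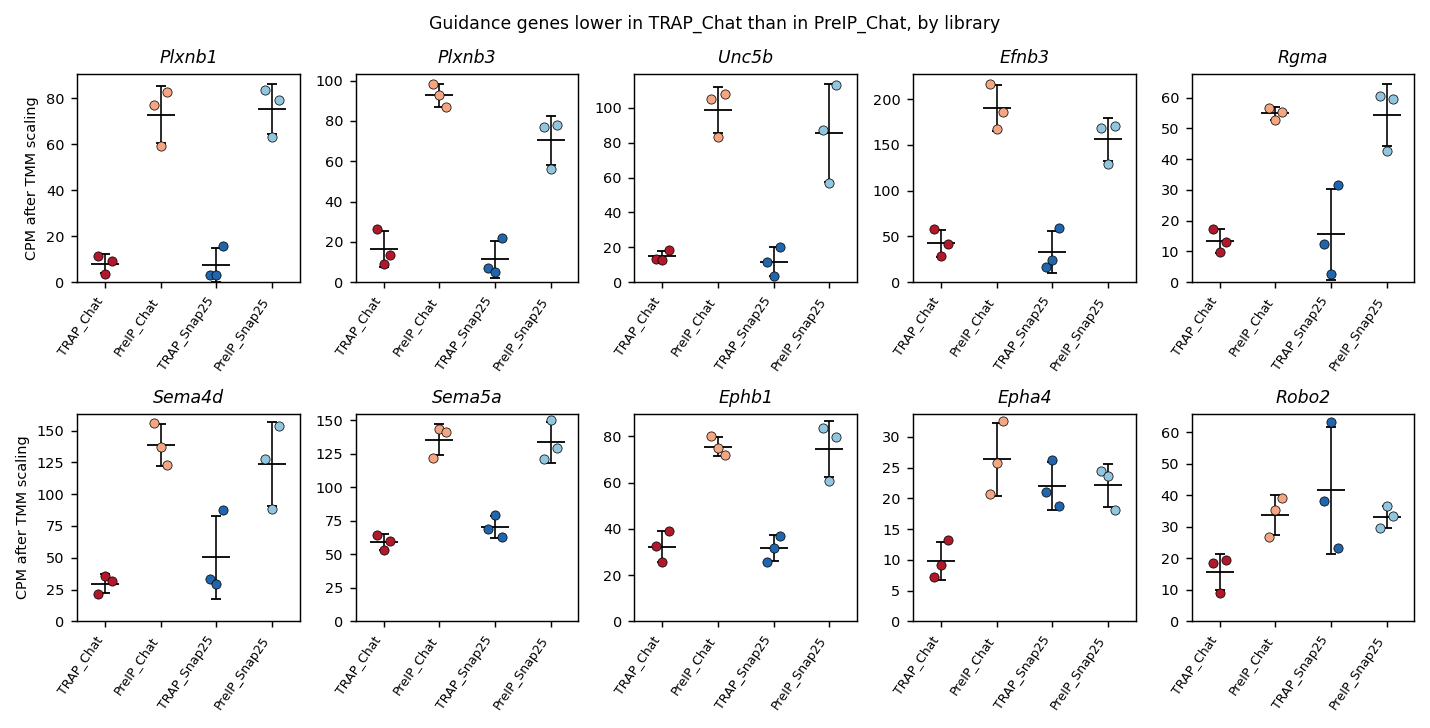
Levels in CPM after TMM scaling (vertical axes, linear) of 10 guidance genes lower in TRAP_Chat than in PreIP_Chat, as points per library with group means and SD (n = 3). Plxnb1 stayed at 3.48 to 11.4 CPM in TRAP_Chat, against 59.2 to 82.7 CPM in PreIP_Chat, and Epha4 was at 7.17 to 13.2 CPM in TRAP_Chat, against 20.7 to 32.5 CPM in PreIP_Chat.

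Of the 24 calls, 11 held in all 14 alternatives: Slit3, Slit2, Sema3a, Plxnb1, Plxnb3, Unc5b, Efnb3, Sema4d, Sema5a, Epha4 and Ephb1. The others lost their calls when single libraries were left out. With no filter on low counts Nrp2, Efnb2 and Sema3e also lost theirs, as did Epha8 with a replicate block. Rgma lost its call without TRAP_Chat replicate 2 (adjusted p = 0.0508), Sema3c without TRAP_Chat replicate 2 or PreIP_Chat replicate 1 or 3, Robo2 without TRAP_Chat replicate 2 or PreIP_Chat replicate 2 or 3, and Ntng1 without TRAP_Chat replicate 3 or PreIP_Chat replicate 1 or 2 (adjusted p up to 0.0815, 0.131 and 0.13). Nrp2, Epha8 and Sema3e lost theirs without any 1 of the 6 libraries, and Efna3, Ntn1, Efnb2, Plxna2, Sema4a and Epha10 without any of 4 or 5 of them taken singly, with adjusted p over all alternatives up to 0.183 for Nrp2.

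In the Snap25 line, guidance genes on ribosomes were compared with those of the whole cord in the same way. Ntng1 alone rose by this test, and Plxnb1, Unc5b, Plxnb3, Efnb3, Rgma and Sema4d were among the 12 that fell. Of the 67 members, 1 was higher and 12 were lower in TRAP_Snap25 than in PreIP_Snap25 by the same test. Over all genes tested, 9.69% were higher and 12.7% lower, against 1.49% and 17.9% of the members, and in either direction 22.4% of all genes and 19.4% of the members passed. All pulldowns lay above all inputs for 3 members (16.6% of all genes did) and below them for 22 (21.4% of all genes did). The median log2 fold change was -0.01 over the members and 0.00 over all genes.

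Ntng1 was at 77.4, 78.1 and 49.5 CPM in TRAP_Snap25 and at 49.3, 38.9 and 33.8 CPM in PreIP_Snap25. The lowest pulldown only just exceeded the highest input, and the log2 fold change was 0.75 ± 0.25 (adjusted p = 0.0427). It was the one member called higher in both lines, 14.3% of the 7 rises in the Chat line and 100% of the single rise in the Snap25 line. Slit3, in contrast, was at 21.2, 33.2 and 22.8 CPM in TRAP_Snap25 and at 23.5, 18.5 and 14.4 CPM in PreIP_Snap25, groups that overlapped (log2 fold change 0.45 ± 0.31, adjusted p = 0.314). Sema3a was at 23.4, 17.9 and 18.9 CPM in TRAP_Snap25 and at 11.5, 11.9 and 13.9 CPM in PreIP_Snap25. These did not overlap, but the log2 fold change of 0.69 ± 0.27 did not pass (adjusted p = 0.0805).

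Plxnb1 was at 2.87, 3.29 and 15.8 CPM in TRAP_Snap25 and at 83.7, 63.1 and 79.3 CPM in PreIP_Snap25. Unc5b was at 11.5, 3.52 and 20 CPM in TRAP_Snap25 and at 87, 56.8 and 113 CPM in PreIP_Snap25. Both were lower in all 3 pulldowns, with log2 fold changes of -3.40 ± 0.54 for Plxnb1 and -2.89 ± 0.45 for Unc5b (adjusted p = 0.000636 and 0.000494). Plxnb3 was at 7.13, 5.14 and 22 CPM in TRAP_Snap25 and at 76.9, 56.2 and 78 CPM in PreIP_Snap25. Efnb3 was at 16, 24.6 and 59.5 CPM in TRAP_Snap25 and at 169, 129 and 171 CPM in PreIP_Snap25. For all 4 of these genes replicate 3 was the highest pulldown, as it was for the oligodendrocyte markers. That replicate was also highest for members that did not fall, such as Sema4f, Sema7a and Unc5a, the last at 49.1, 37.5 and 150 CPM. Log2 fold changes were -2.65 ± 0.46 for Plxnb3 and -2.23 ± 0.39 for Efnb3 (adjusted p = 0.00116 and 0.00108).

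Rgma was at 12.4, 2.57 and 31.6 CPM in TRAP_Snap25 and at 60.7, 42.6 and 59.6 CPM in PreIP_Snap25. Sema4d was at 33.2, 29.7 and 87.8 CPM in TRAP_Snap25 and at 128, 88.5 and 154 CPM in PreIP_Snap25. In replicate 3 the Sema4d pulldown came within a CPM of the lowest input, and the log2 fold changes were -1.82 ± 0.53 for Rgma and -1.30 ± 0.36 for Sema4d (adjusted p = 0.0225 and 0.0157). Plxnd1, the receptor of Sema3e, was at 1.76, 0.335 and 0.61 CPM in TRAP_Snap25 and at 4.78, 3.56 and 5.54 CPM in PreIP_Snap25 (log2 fold change -2.35 ± 0.64, adjusted p = 0.0158). Ephb4, a receptor for Efnb2 known from vessels, also passed, with only 3, 1 and 1 counts in TRAP_Snap25 and 42, 20 and 20 counts in PreIP_Snap25. Sema5a, Ephb1 and Sema6d, a transmembrane semaphorin that binds Plxna1, fell by 0.93, 1.24 and 0.92 on the log2 scale.

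Sema6a, a transmembrane semaphorin that binds Plxna2 and Plxna4, fell in the Snap25 line. It was at 79, 89.3 and 69 CPM in TRAP_Snap25 and at 158, 202 and 215 CPM in PreIP_Snap25. All pulldowns were below all inputs, with a log2 fold change of -1.28 ± 0.22 (adjusted p = 0.00102). In the Chat line it was at 137, 182 and 170 CPM in TRAP_Chat and at 168, 144 and 175 CPM in PreIP_Chat. These overlapped, and the log2 fold change was 0.00 ± 0.21 (95% interval -0.45 to 0.46, adjusted p = 0.991).

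The comparisons of each pulldown with its own input share no libraries. The members lower in both were Efnb3, Ephb1, Plxnb1, Plxnb3, Rgma, Sema4d, Sema5a and Unc5b. These 8 were 47.1% of the falls in the Chat line and 66.7% of those in the Snap25 line, beside 53.9% and 60.6% over all genes tested. Glial markers were lower in this line as well: 10 of 10 oligodendrocyte, 6 of 6 precursor, 8 of 9 astrocyte and 7 of 9 microglial genes passed. The summed oligodendrocyte level was 1722 to 5302 CPM in TRAP_Snap25 and 16340 to 21450 CPM in PreIP_Snap25, and its part in these values was not tested. Of the 12 members that fell, 7 were highest in TRAP_Snap25 replicate 3, as that sum was, and 5 were not. How many of all genes were highest there was not counted.

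**Figure D3:**
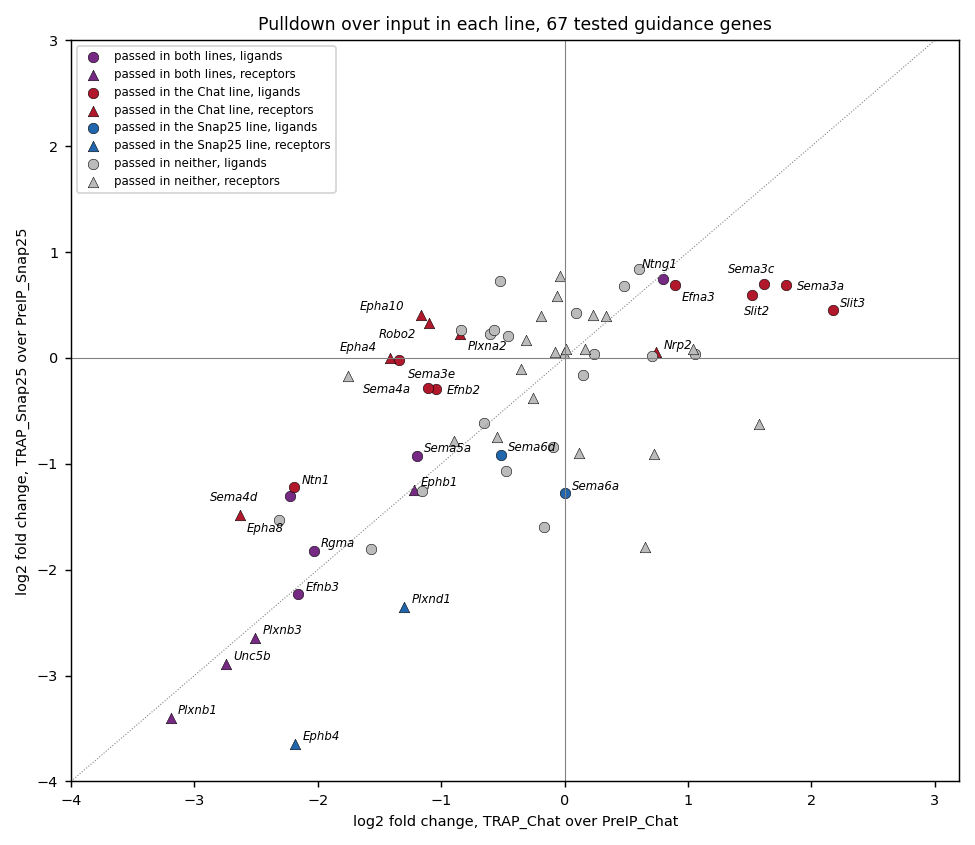
Log2 fold change of TRAP_Chat over PreIP_Chat (horizontal) against that of TRAP_Snap25 over PreIP_Snap25 (vertical) for the 67 tested guidance genes, circles for ligands and triangles for receptors. Colours mark the line in which a gene passed, and the dotted line marks equal changes. Plxnb1 lies at -3.19 and -3.40, near equal change, and Slit3 at 2.18 and 0.45, far to its right.

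Of the 13 calls in the Snap25 line, 8 held in all 14 alternatives: Plxnb1, Plxnb3, Unc5b, Efnb3, Sema6a, Sema6d, Sema5a and Ephb1. The others lost their calls when single libraries were left out. A fit of only this line's groups also ended the calls of Ntng1, Rgma and Sema4d, and no filter on low counts that of Ntng1. Ntng1 lost its call without replicate 1 or 2 of TRAP_Snap25 or any 1 input (adjusted p up to 0.142). Rgma did so without TRAP_Snap25 replicate 1 or PreIP_Snap25 replicate 1 or 3 (up to 0.0726). For Sema4d it was without TRAP_Snap25 replicate 1 or 2 or PreIP_Snap25 replicate 3 (up to 0.0664). For Ephb4 it was without TRAP_Snap25 replicate 2 or PreIP_Snap25 replicate 1 (up to 0.0588), and for Plxnd1 without TRAP_Snap25 replicate 2 (0.0557).

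Setting the pulldowns side by side asks which guidance genes differ between ribosomes of cholinergic neurons and those of neurons in general. Both neuropilins, both Slits that rose in the Chat line, Sema3a, Sema6a and Ntng2 were higher in TRAP_Chat than in TRAP_Snap25. Robo2 and Epha4 were lower. Of the 67 members, 7 were higher and 2 lower, that is 10.4% and 2.99%. Over all genes tested, 3.97% were higher and 2.77% lower, and in either direction 6.75% passed, against 13.4% of the members. Every TRAP_Chat library lay above every TRAP_Snap25 library for 11 members (10.3% of all genes did) and below for 6 (9.47% of all genes did). The median log2 fold change was 0.09 over the members and 0.01 over all genes. By family, 2 of 2 neuropilins, 2 of 3 Slits, 1 of 6 tested class 3 semaphorins and 0 of 9 plexins were higher. This comparison shares the TRAP_Chat and TRAP_Snap25 libraries with those above.

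Slit3 was at 52.7 to 126 CPM in TRAP_Chat and at 21.2 to 33.2 CPM in TRAP_Snap25, a 3.51-fold difference (log2 fold change 1.81 ± 0.31, adjusted p = 0.00212). Slit2 was at 70.6, 163 and 93.3 CPM in TRAP_Chat and at 64, 44.8 and 47.6 CPM in TRAP_Snap25, with a gap of only a few CPM between the nearest libraries (log2 fold change 1.06 ± 0.31, adjusted p = 0.0495). Sema3a was at 37.9 to 45.3 CPM in TRAP_Chat and at 17.9 to 23.4 CPM in TRAP_Snap25 (1.04 ± 0.27 on the log2 scale, adjusted p = 0.0289). All 3 secreted repellents had every TRAP_Chat library above every TRAP_Snap25 library.

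Nrp1, the neuropilin that binds Sema3a, was at 18, 14.5 and 16.4 CPM in TRAP_Chat and at 6.39, 7.14 and 2.34 CPM in TRAP_Snap25. The gap between the groups was wider than the spread within either, and the log2 fold change was 1.61 ± 0.41 (adjusted p = 0.0245). Its inputs were at 10.7, 12.7 and 6.24 CPM in PreIP_Chat and at 8.24, 12.5 and 9.25 CPM in PreIP_Snap25. All TRAP_Chat values lay above all inputs, and the lowest input, in PreIP_Chat, lay within the range of TRAP_Snap25. Nrp2 was at 90.2, 92.1 and 111 CPM in TRAP_Chat and at 61.8, 36.4 and 59.5 CPM in TRAP_Snap25 (log2 fold change 0.89 ± 0.26, adjusted p = 0.0462). Sema3a and both neuropilins stood higher in the same pulldowns.

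Sema6a was at 137, 182 and 170 CPM in TRAP_Chat and at 79, 89.3 and 69 CPM in TRAP_Snap25 (log2 fold change 1.04 ± 0.22, adjusted p = 0.00834). Ntng2, a netrin G like Ntng1, was at 43.3, 86.1 and 62.9 CPM in TRAP_Chat and at 16.2, 13.3 and 43.2 CPM in TRAP_Snap25. Its nearest libraries almost touched, and the log2 fold change was 1.41 ± 0.40 (adjusted p = 0.0451). Exons of 6530402F18Rik, a transcript on the same strand, cover 14.0% of the exon bases of Ntng2, so its reads are uncertain. Against the input of its own line, Ntng2 in TRAP_Chat gave 1.05 ± 0.40 on the log2 scale (adjusted p = 0.0592), which did not pass.

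Robo2 was at 18.6, 9.07 and 19.5 CPM in TRAP_Chat and at 38.1, 63.2 and 23.3 CPM in TRAP_Snap25, a 2.64-fold difference with no overlap (log2 fold change -1.40 ± 0.35, adjusted p = 0.0236). Epha4 was at 7.17, 9.22 and 13.2 CPM in TRAP_Chat and at 21, 26.3 and 18.8 CPM in TRAP_Snap25 (log2 fold change -1.16 ± 0.30, adjusted p = 0.0264). Epha10 gave -1.19 ± 0.36 and just missed the threshold (adjusted p = 0.0605). Robo1, another receptor for Slits, was at 43.5, 61.3 and 64.3 CPM in TRAP_Chat and at 97.9, 84.6 and 68.7 CPM in TRAP_Snap25. Its libraries did not overlap, but its log2 fold change of -0.57 ± 0.24 did not pass (adjusted p = 0.179). Inhibitory neuron markers, 7 of 8, and glutamatergic markers, 2 of 6, were also lower in TRAP_Chat than in TRAP_Snap25. The inhibitory sum was 145.6 to 305.4 CPM in TRAP_Chat and 969.8 to 1309 CPM in TRAP_Snap25, and its part in the values of Robo2 and Epha4 was not tested. Among markers that moved with the members higher in TRAP_Chat, 10 of 10 cholinergic motor neuron, 2 of 7 meningeal fibroblast and 1 of 4 tested Schwann cell and sensory neuron genes were higher. So were 2 of 7 genes for neurons in general, 1 of 9 astrocyte and 1 of 8 endothelial cell genes. In the lists for neurons in general and astrocytes, 1 gene each was lower. The fibroblast sum was 81.6 to 270.7 CPM in TRAP_Chat and 48.5 to 81.8 CPM in TRAP_Snap25, and the Schwann cell and sensory neuron sum was 960.9 to 1098 CPM in TRAP_Chat and 207.9 to 337.4 CPM in TRAP_Snap25. Igf2 alone was at 149 CPM in TRAP_Chat replicate 1, where the fibroblast sum was highest. The part of all these cell types in the members' values was not tested.

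**Figure D4:**
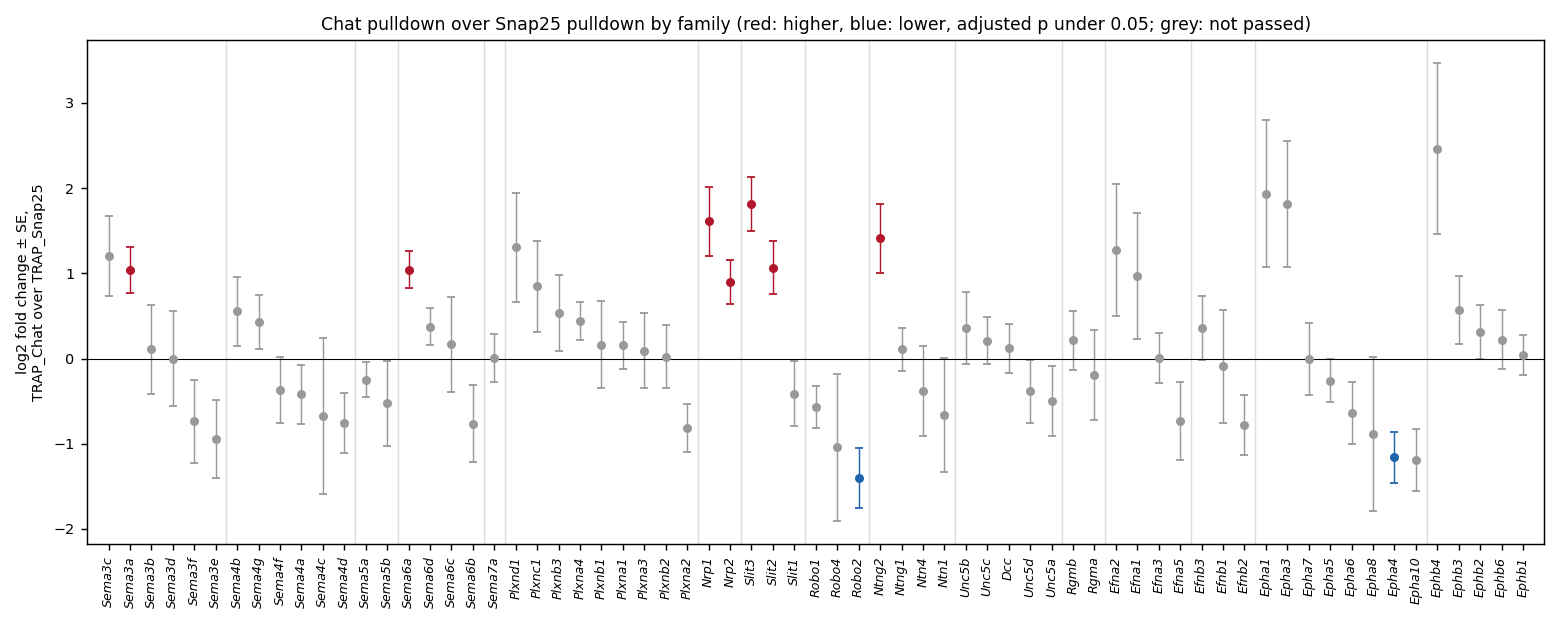
Log2 fold change of TRAP_Chat over TRAP_Snap25 (vertical axis) with its standard error for each of the 67 tested guidance genes, grouped by family along the horizontal axis. Red points passed as higher, blue points as lower and grey points did not pass. Slit3 at 1.81 and Nrp1 at 1.61 are the highest of the genes that passed, and Robo2 at -1.40 is the lowest.

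Only Slit3 kept its call in all 14 alternatives of this comparison. In a fit of the pulldowns alone, 1 of 64 members tested was higher and 0 lower. Over all 14111 genes tested in that fit, 237 were higher and 145 lower, so members were not called beyond the share of all genes. In the main fit 632 and 441 of 15905 genes were called. Sema6a lost its call only in the fit of the pulldowns alone (adjusted p = 0.0524). Among single libraries left out, TRAP_Chat replicate 1 or 3 ended the call of Nrp1, TRAP_Chat replicate 1 or 2 or TRAP_Snap25 replicate 2 those of Sema3a and Epha4, TRAP_Chat replicate 2 or TRAP_Snap25 replicate 2 that of Robo2, and 4 or 5 of the 6 those of Nrp2, Slit2 and Ntng2 (limma voom also ended that of Slit2, and adjusted p over all alternatives reached 0.0996 for Nrp1, 0.0993 for Sema3a, 0.131 for Epha4, 0.124 for Robo2 and 0.212 for Slit2).

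Whether the change from input to pulldown differs between the lines was tested directly. No member passed by edgeR, 0 higher and 0 lower, where 0.604% and 0.44% of all genes did. At an unadjusted p under 0.05 there were 10 members, or 14.9%, against 11.5% of all genes. DESeq2 called 2 higher (Sema6a and Slit3) and 1 lower (Epha4), and limma voom called 1 higher (Sema6a) and 0 lower. Over all 15905 genes DESeq2 called 292 higher and 209 lower, and limma voom 113 and 106. The nearest to passing was Sema6a, with a difference of 1.28 ± 0.31 on the log2 scale between the lines (95% interval 0.64 to 1.93, adjusted p = 0.0527). Slit3 followed with 1.73 ± 0.44 (95% interval 0.81 to 2.64, adjusted p = 0.0684). For Epha4 the difference was -1.41 ± 0.42 (adjusted p = 0.129), for Robo2 -1.42 ± 0.49 (adjusted p = 0.225), and for Sema3a 1.10 ± 0.38 (adjusted p = 0.231). Among other edgeR settings, RLE scaling and the filter of at least 1 CPM in 3 libraries called Sema6a, and no filter called Sema6a and Slit3, so these calls depend on the setting. Over all genes those settings called 106, 108 and 269 higher, against 96 in the main fit.

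The inputs of the lines were compared to look for differences between the cords. By edgeR, 0 members were higher and 0 lower in PreIP_Chat than in PreIP_Snap25, as for all genes tested (0% and 0%). All PreIP_Chat libraries lay above all PreIP_Snap25 libraries for 5 members (4.19% of all genes did) and below them for 0 (3.85% of all genes did). There were 0 members at an unadjusted p under 0.05 (0.836% of all genes), and DESeq2 and limma voom also called 0. The log2 fold changes of the members ran from -0.53 to 0.999 with a median of 0.12, beside 0.00 over all genes. The edgeR test used a spread shared by all 12 libraries, pulldowns included. Slc18a3, of the cholinergic motor neuron list, did not pass at 181, 167 and 202 CPM in PreIP_Chat and 65.1, 22.9 and 64 CPM in PreIP_Snap25. The absence of calls therefore does not show that the cords were alike.

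Levels between genes were compared per kb of exon. In TRAP_Chat the highest were Sema7a, a membrane-anchored semaphorin that binds Plxnc1 and integrins, at 30 ± 4.18 CPM per kb, then Sema6a at 18.6 ± 2.67, Ntng2 at 16.1 ± 5.37, Slit3 at 14.9 ± 6.07 and Efna3 at 14.6 ± 1.97 CPM per kb (SD, n = 3). The last 4 do not differ beyond their spread. In PreIP_Chat Efnb3 led with 59.8 ± 7.81 CPM per kb, above Sema7a at 21.5 ± 3.95, Sema6a at 18.5 ± 1.83 and Sema4d at 18.1 ± 2.16 CPM per kb, which overlap each other. In TRAP_Snap25 Sema7a was again first at 30 ± 11.5 CPM per kb, and Unc5a, a netrin receptor, stood at 18.9 ± 14.8 CPM per kb. That spread came from TRAP_Snap25 replicate 3, where Unc5a was at 150 CPM while the others were at 49.1 and 37.5 CPM. In PreIP_Snap25 Efnb3 led with 49.1 ± 7.48 CPM per kb.

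Members with the most counts of their family did not pass in several families. Plxna4, a co-receptor of class 3 and receptor of class 6 semaphorins, was at 98.6, 148 and 129 CPM in TRAP_Chat and at 111, 118 and 106 CPM in PreIP_Chat. Epha5, a receptor for A ephrins, was at 22.2, 26.7 and 20.8 CPM in TRAP_Chat and at 22.3, 31.2 and 33.2 CPM in PreIP_Chat. Unc5a was at 47.2, 44.6 and 74.9 CPM in TRAP_Chat and at 59.5, 63.6 and 47.9 CPM in PreIP_Chat. None of these 3 passed in any comparison: their log2 fold changes in the Chat line were 0.17 ± 0.22, -0.32 ± 0.25 and -0.04 ± 0.41. Sema7a gave 0.48 ± 0.28 in the Chat line (adjusted p = 0.222) and 0.68 ± 0.28 in the Snap25 line (adjusted p = 0.0968).

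Of the 5 members that were not tested, Sema3g had 1 count over the 6 pulldowns and 35 over the 6 inputs, Epha2 had 3 and 44, and Ntn5 had 0 and 20. Efna4 had 32 counts over the pulldowns, 20 of them in TRAP_Snap25 replicate 2, and 12 over the inputs. Robo3, the receptor that lets commissural axons cross the midline, had 20 over the pulldowns and 30 over the inputs.

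Downstream and co-receptor genes of guidance were read from a list of 73 names, 74 gene IDs because Mical3 has 2. In TRAP_Chat against PreIP_Chat 12 were higher and 11 lower, or 16.2% and 14.9%, near the 12.6% and 14.3% of all genes, and their median log2 fold change was -0.03. The largest rises were Ret at 2.50 ± 0.29, Mical2 at 1.54 ± 0.24, Gpc1 at 1.38 ± 0.39 and Gfra1 at 1.33 ± 0.28. Ret and Gfra1 form the receptor of the growth factor GDNF, and Ret also stands in the motor neuron list. The largest falls were Ptk7 at -2.88 ± 0.94, Mical3 (ENSMUSG00000051586) at -2.17, the kinase Rock1 at -2.03 ± 0.63 and the kinase Abl1 at -1.95 ± 0.28. Ptk7 had few reads, at 0.371, 0 and 1.25 CPM in TRAP_Chat. The other ID of Mical3 averaged 29 CPM in TRAP_Chat and 30.9 CPM in PreIP_Chat. In TRAP_Snap25 against PreIP_Snap25 7 were higher and 12 lower, or 9.46% and 16.2%, against 9.69% and 12.7% of all genes (median -0.07), with Ret at 1.40, Pak1 at 1.15, Sh3bp1 at 0.95 and Chn1 at 0.87 the largest rises. Falls there were led by Rock1 at -2.49, the same ID of Mical3 at -2.33, Adam17 at -2.08 and Abl1 at -2.04. The other ID of Mical3 averaged 26.5 CPM in TRAP_Snap25 and 27.7 CPM in PreIP_Snap25.

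Between the pulldowns, 7 of the 74 were higher and 1 was lower in TRAP_Chat, or 9.46% and 1.35%, against 3.97% and 2.77% of all genes (median 0.13). Mical1 gave 2.74 ± 0.79, Ret 1.58 ± 0.28, Gfra1 1.44 ± 0.28 and Mical2 1.27 ± 0.24 on the log2 scale. The value of Mical1 rests on few reads, at 0.0735, 0.391 and 0.509 CPM in TRAP_Snap25. It averaged 2.17 CPM in TRAP_Chat and 2.18 CPM in PreIP_Chat. Mical1 and Mical2 belong to the MICAL enzymes, which act on actin downstream of plexins. Flrt2, a ligand of Unc5 receptors, was lower at -1.34 ± 0.34. By edgeR, 0 passed in the difference between the lines, where 11 had an unadjusted p under 0.05, DESeq2 called 3 higher and 1 lower, and limma voom called 0. Over all 15905 genes DESeq2 called 292 higher and 209 lower in that difference. Between the inputs 0 passed by edgeR, DESeq2 or limma voom, and 0 had an unadjusted p under 0.05.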

How the data were processed

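The authors deposited raw counts for each Ensembl gene ID. STAR and HTSeq are named, per the submitters' processing notes. Tool versions, the build, the annotation and the strandedness of counting were not given in the sources used here. Per the labels, libraries were amplified with a Nugen Ovation kit, so reads are not independent molecules. Of 41736 lines, 824 repeated another line and were dropped.

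Genes passing filterByExpr (15905) were fitted over all 12 libraries with 1 mean per group in edgeR 4.0.16 under R 4.3.3, with TMM scaling, two-sided quasi-likelihood tests and Benjamini-Hochberg adjustment at 0.05. Standard errors are the log2 fold change over the square root of F. CPM per kb used GENCODE M21 exon lengths, which matched all 72 members. Promoters are from RefSeq (GRCm38.p6). The pipeline was tested on simulated data.

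Members past the threshold could be named, with values per library for the 8 largest changes per direction and the member with the highest mean CPM of each family. From the list of effectors, up to 4 were named per direction. Members and lists were chosen with earlier results of these data known. Input and pulldown of a line with the same replicate number also share a suffix in their descriptions, whose meaning the labels do not state, so the pairing was used as an alternative. The fits were repeated with DESeq2 1.42.0, limma voom 3.58.1, RLE scaling, no filter, at least 1 CPM in 3 libraries, only the groups compared, a replicate block, and leaving out libraries.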

Additional observations from a re-analysis of the deposited data

Results flagged for a closer look

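Nrp1 libraries lay on opposite sides of the inputs in the lines: all 3 TRAP_Chat libraries (18, 14.5 and 16.4 CPM) lay above all PreIP_Chat libraries (10.7, 12.7 and 6.24 CPM), and all 3 TRAP_Snap25 libraries (6.39, 7.14 and 2.34 CPM) lay below all PreIP_Snap25 libraries (8.24, 12.5 and 9.25 CPM). The log2 fold change over input was higher in the Chat line than in the Snap25 line by 1.62 (edgeR, adjusted p = 0.23), which did not pass, and neither change did by itself (0.72 in the Chat line, adjusted p = 0.189, and -0.90 in the Snap25 line, adjusted p = 0.12). The same pattern was held by 50 of 15905 genes tested, or 0.314%.

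Sema3f, a secreted semaphorin that binds Nrp2, showed the reverse: TRAP_Chat (2.72, 2.19 and 1.72 CPM) lay below PreIP_Chat (3.18, 3.49 and 2.86 CPM) and TRAP_Snap25 (3.09, 3.91 and 4.07 CPM) above PreIP_Snap25 (2.91, 2.2 and 1.56 CPM). The difference between the lines was -1.25 on the log2 scale (edgeR, adjusted p = 0.533), which did not pass. Of the genes tested, 114 held this pattern, or 0.717%.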

How the results depend on the processing

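No call changed sign. Leaving out 1 library at a time gave 3 to 7 members higher and 9 to 15 lower in TRAP_Chat against PreIP_Chat. It gave 0 to 1 higher and 9 to 14 lower in TRAP_Snap25 against PreIP_Snap25, and 3 to 9 higher and 0 to 3 lower in TRAP_Chat against TRAP_Snap25. In the difference between the lines it gave 0 to 2 higher and 0 lower, where the 2 (Sema6a and Slit3) passed without TRAP_Chat replicate 1. Calls over all 16455 to 16578 genes tested in these fits moved too. They were 1191 to 1767 higher and 1547 to 2199 lower in the Chat line, and 675 to 1688 and 1298 to 2321 in the Snap25 line. Between the pulldowns they were 355 to 961 higher and 266 to 574 lower, and in the difference 26 to 152 and 26 to 97. With only the groups compared, TRAP_Chat against TRAP_Snap25 gave 1 higher and 0 lower of 64 members then tested. All genes gave 237 and 145 of 14111 there. The Snap25 line gave 0 higher and 10 lower with only its groups, without Rgma and Sema4d, where all genes gave 890 and 1472 of 14673. With no filter the Snap25 line also gave 0 higher, where 1390 of 26577 genes were. In the difference between the lines, the higher members numbered 1 with RLE scaling, limma voom or the filter of at least 1 CPM in 3 libraries, 2 with DESeq2 or no filter, and DESeq2 gave 1 lower. Over all genes the higher numbered 106, 113, 108, 292 and 269 in that order, and DESeq2 gave 209 lower in the difference. An alternative chosen after seeing the data left out the pulldown of each line with the highest oligodendrocyte marker sum, TRAP_Chat replicate 1 and TRAP_Snap25 replicate 3. It gave 3 members higher (Ntng2, Sema6a, Slit3) and 1 lower (Robo2) in that difference, and 2 higher and 18 lower in the Snap25 line. Over 16362 genes it gave 211 and 139 in the difference, and 1907 and 2758 in the Snap25 line. With a replicate block the counts were 8 higher and 17 lower in the Chat line, 1 and 13 in the Snap25 line, 5 and 2 between the pulldowns, and 0 and 0 in the difference and between the inputs. Over all 15905 genes they were 1986 and 2445, 1544 and 2119, 546 and 374, 118 and 88, and 0 and 0 in that order. The block ended the call of Epha8 in the Chat line and those of Nrp2 and Slit2 between the pulldowns, and added Ntng2 and Plxnb2 in the Chat line and Unc5c in the Snap25 line. Same-numbered input and pulldown correlated at 0.06 to 0.127 in the Chat line, where 3 of 3 pulldowns were closest to their own number, and at -0.037 to 0.167 in the Snap25 line, where 1 of 3 was. These libraries also share a suffix of unstated meaning in their descriptions, so whether they are pairs is not settled by the labels. The median log2 fold change over all genes in the Snap25 line was -0.14 with no filter, against 0.00 with the filter. At these depths 3 counts in a library correspond to 0.146 to 0.296 CPM, and members with few reads, such as Epha8 and Ephb4, were measured least precisely. The effector list had 6 to 16 genes higher and 7 to 13 lower in the Chat line over these settings, 2 to 9 and 8 to 15 in the Snap25 line, 3 to 12 and 0 to 4 between the pulldowns, and 0 to 4 and 0 to 1 in the difference.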
